A study of Mus musculus with 8 samples.

Results

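The cytosolic ribosomal protein genes were followed in cultured mouse cardiac fibroblasts infected with a Has2 adenovirus or with a control adenovirus that carries green fluorescent protein (GFP). They were taken by symbol: Rpl, Rps or Rplp with a number and at most an ending a, l, x or y, together with Rpsa, leaving out pseudogenes marked -ps, the S6 kinases and the mitochondrial ribosomal proteins. In the deposited counts 83 of 55414 genes met this rule, 32 of the small subunit, 48 of the large subunit and 3 of the stalk, and 81 of them were among the 15150 genes with enough counts to test. The other 2, Rpl10l and Rpl3l, are paralogues known mainly from testis and from striated muscle. Rpl10l had 0 counts in every library, which allows at most 0.0538 to 0.0639 CPM (counts scaled to a common library size), and Rpl3l had 0 to 2 counts. In the annotation used for symbols, 80 of the 83 are protein coding and Rps4l, Rpl6l and Rpl32l are not.

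The cells were fibroblasts of C57BL/6J hearts at passage 2, and every culture went through the same treatment apart from the virus. It was kept without serum for 24 h, exposed to virus for 5 h and then held for 48 h in medium with bFGF and TGFb, given as 20 ng/mL. The control group received GFP adenovirus (4 libraries) and the other group Has2 adenovirus (4 libraries), and the study asks what forced Has2 expression does to these cells. Replicates 1 and 2 were female and replicates 3 and 4 male in both groups. The labels name the genotype as wild type, while the treatment text speaks of Has2fl/fl animals, and do not settle which applies to these cultures. Libraries with the same number carry the same preparation identifier, and the identifiers of the female pairs start with S and those of the male pairs with R, so a difference between the sexes and one between the 2 series of preparations cannot be told apart. Whether preparations were separate animals is not stated in the labels, and p values therefore measure only the spread between these libraries.

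Ribosomal proteins clothe the RNA core of the ribosome, the particle that translates messenger RNA. The small subunit reads the message, the large subunit joins amino acids, and the stalk proteins Rplp0, Rplp1 and Rplp2 recruit the translation factors that drive each step. The genes lie scattered over the genome but their products are needed in matched amounts. Their messenger RNAs begin with a run of pyrimidines, the TOP motif, through which the kinase mTOR and the RNA-binding protein Larp1 control their translation and stability. Fibroblasts of the heart make and secrete much of its matrix protein, which places a demand on translation.

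The libraries held 46981231 to 55795187 counts. Has2, the hyaluronan synthase carried by the virus, stood at 25.2, 7.36, 18.3 and 21.3 CPM in GFP replicates 1 to 4 and at 9533, 8406, 3209 and 4860 CPM in Has2 replicates 1 to 4, so every library matched its label. Its log2 fold change was 8.49 (SE 0.57; edgeR adjusted p = 0.0011). Summed fibroblast markers were at 25800 to 39400 CPM with the GFP virus and 26000 to 40200 CPM with the Has2 virus, with 12 of 12 genes detected. Macrophage markers were also present, 13 of 13 genes at a summed 1030 to 2520 and 961 to 2690 CPM. Endothelial markers were at 25.3 to 49.2 CPM over all libraries, and cardiomyocyte markers at 4.35 to 9.02 CPM with 2 of 8 genes testable. Among the Has2 libraries replicate 1 stood apart from the other libraries in how far ribosomal protein genes departed from their own means, with an SD over genes of 0.34 on the log2 scale, and replicate 3 with 0.25, against 0.09 to 0.12 in the other 6.

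Ribosomal protein messages were abundant in all 8 cultures. Together the 83 genes took 3.94%, 5.50%, 5.18% and 4.43% of all counts in GFP replicates 1 to 4, and 3.19%, 4.18%, 5.23% and 5.42% in Has2 replicates 1 to 4. The means were 4.76% ± 0.71 and 4.50% ± 1.03 (SD, n = 4), and the 2 groups overlapped. Counting error was small beside these differences: the exact binomial 95% interval ran from 3.18% to 3.19% in the library with the lowest share and from 5.50% to 5.51% in the one with the highest. Small subunit genes held 41.4% to 43.8% of the ribosomal protein counts, large subunit genes 45.9% to 49.6% and the 3 stalk genes 8.96% to 10.8%.

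**Figure D1:**
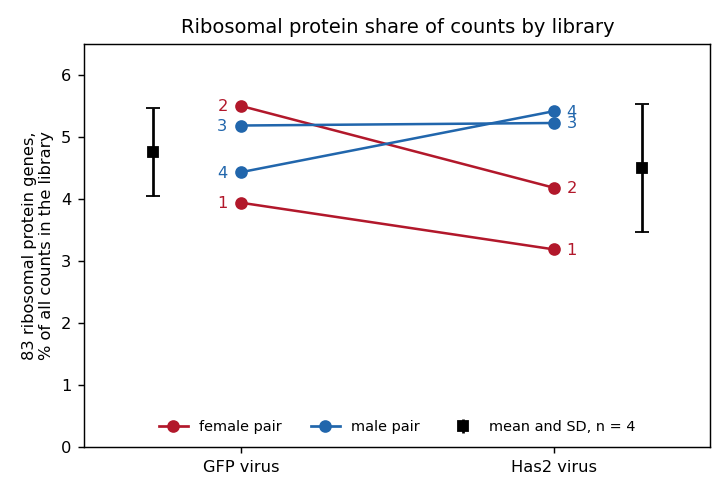
Share of all counts taken by the 83 ribosomal protein genes (vertical axis, percent) with the GFP and Has2 viruses (horizontal axis). Lines join libraries of the same replicate number, red for female and blue for male, and black squares give mean and SD (n = 4). The female lines go from 3.94% to 3.19% and from 5.50% to 4.18%, while the male lines go from 5.18% to 5.23% and from 4.43% to 5.42%.

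Levels differed widely between the genes, although their proteins are built into the ribosome in near-equal numbers. Over the 78 protein-coding members that passed the filter, the mean level over 8 libraries had a median of 627 CPM per kb of transcript. Rplp1, a stalk protein present in more than a single copy per ribosome, was highest at 3684 CPM per kb, followed by Rps12 of the small subunit head at 2100 and Rpl41, the smallest ribosomal protein, at 2081. The lowest were the paralogue Rpl39l at 1.12, Rpl24 at 59.7 and Rps15a at 87.4 CPM per kb. The value of Rps15a rests on an annotated main transcript of 5179 bases, and per kb of coding sequence it was at 1160, close to the median of 1101. Many ribosomal protein genes have processed pseudogenes with nearly the same sequence, and how reads shared with them were treated is not given in the sources used here. The low level of Rpl24 and other levels are uncertain for that reason, while a comparison of the same gene between libraries is less affected. The 300 annotated pseudogenes marked -ps held 0.00705% to 0.0195% of the counts. Pseudogenes under other symbols are not in that figure, and reads dropped as shared would not show in it.

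Of the 81 tested ribosomal protein genes 0 passed edgeR's quasi-likelihood test for Has2 against GFP virus at an adjusted p under 0.05, where 0.0066% of all tested genes did, Has2 alone. Their median log2 fold change was -0.07, with 64 negative and 17 positive values, against a median of -0.01 over all genes. At an unadjusted p under 0.05 there were 0 of these genes (388 of all genes). With the replicate number as a block 0 were called (0.0066% of all genes). An unadjusted p under 0.05 was found there for 3 of the 81 genes, namely Rpl7, Rpl24 and Rpl5, against 1134 of all 15150 genes. DESeq2 called 0 without the block (0.0462% of all genes) and 0 with it (0.403%), and limma-voom called 0 (0.0066%). The median SE of a log2 fold change was 0.21 for these genes, and 0.16 with the block.

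Among genes with a mean of at least 5 CPM, the lowest fold changes belonged to Rpl24, Rpl7, Rps15a and Rpl5. Rpl24, a large subunit protein at the bridge between the subunits, was measured at 33.2, 59.0, 54.4 and 40.9 CPM in GFP replicates 1 to 4 and at 18.4, 33.3, 46.8 and 37.3 CPM in Has2 replicates 1 to 4. It was lower in all 4 pairs, although the groups overlapped (log2 fold change -0.47, SE 0.28; -0.23 without Has2 replicate 1). Rpl7, another large subunit protein, was at 676, 936, 847 and 693 CPM with the GFP virus and at 463, 754, 589 and 637 CPM with the Has2 virus. It too was lower in every pair, at -0.55, -0.31, -0.52 and -0.12 (log2 fold change -0.37, SE 0.17; -0.16 with the GC and length trend described further on removed). Rpl5, which carries the 5S RNA into the large subunit and with Rpl11 restrains the p53 ligase Mdm2, had pair differences of -0.21, -0.38, -0.45 and -0.05 (log2 fold change -0.28, SE 0.13), and stood at 0.04 with that trend removed. Rps15a of the small subunit was at -0.29 (SE 0.24), with -0.08 without Has2 replicate 1, and was lower in 3 of 4 pairs. Of the 81 genes 4 were lower in all 4 pairs, the low-level paralogue Rpl39l being the fourth, and 0 were higher in all 4, against 1206 and 1387 of the 15150 genes tested.

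At that minimum level, the highest fold changes were those of Rpl7a, Rpl28 and Rpl35 of the large subunit, at 0.12, 0.12 and 0.12 on the log2 scale (SE 0.13 to 0.17). Rpl28 was measured at 544, 831, 677 and 600 CPM with the GFP virus and at 565, 696, 765 and 857 CPM with the Has2 virus. All 3 genes were lower in the replicate 2 pair and higher in the other 3 pairs. Without replicate 4 the values of Rpl28 and Rpl35 were 0.01 and 0.00.

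The values near 0 over all libraries came from pairs that moved in opposite directions. The median difference of the 81 genes, as log2 CPM with the Has2 virus minus that with the GFP virus, was -0.36 and -0.45 in the female pairs of replicates 1 and 2 and 0.11 and 0.33 in the male pairs of replicates 3 and 4. The same medians over all genes were 0.00, -0.02, 0.04 and 0.02. Lower with the Has2 virus were 70, 81, 24 and 6 of the 81 genes in the pairs of replicates 1 to 4. Lower in both female pairs and higher in both male pairs were 51 of 81 genes (63.0%), against 2821 of 15150 (18.6%) of all genes. These are bulk RNA libraries, in which fewer cells of a type and less RNA per cell cannot be told apart, and values are relative to each library's total.

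**Figure D2:**
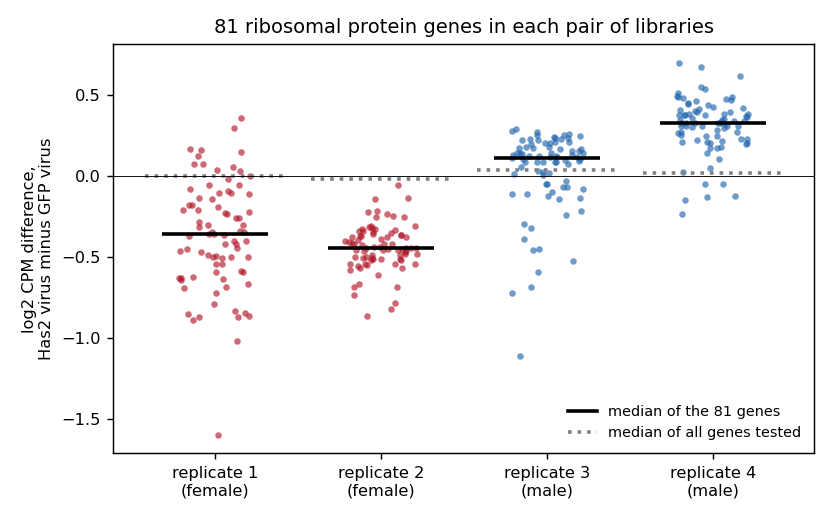
Log2 CPM difference, Has2 virus minus GFP virus (vertical axis), of each of the 81 tested ribosomal protein genes in the 4 pairs of libraries (horizontal axis). Each point is a gene, black lines are the medians of these genes (-0.36, -0.45, 0.11 and 0.33) and dotted grey lines the medians of all 15150 genes. In the replicate 2 pair every gene lies below 0, and in the replicate 4 pair 75 of 81 lie above it.

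The libraries with the same virus differed among themselves about as much as the viruses did within a pair. Relative to each gene's mean over 8 libraries, the median of the 81 genes was at -0.21, 0.38, 0.17 and -0.12 in GFP replicates 1 to 4 and at -0.58, -0.06, 0.26 and 0.22 in Has2 replicates 1 to 4. GFP replicate 2 was the highest library and Has2 replicate 1 the lowest, and both are female. Between genes, Spearman's rho of the pair difference was 0.57 between the female pairs and 0.69 between the male pairs, and -0.09 to 0.12 between a female and a male pair, over 81 genes that share libraries and are not independent.

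The response to the virus was then compared between the sexes, as the change in male pairs minus the change in female pairs. Without the pairing edgeR called 0 of the 81 genes (0% of all genes), with a median difference of 0.62 (0.03 over all genes; 0.28 without GFP replicate 2 and 0.37 without Has2 replicate 1), 76 positive values and 1 gene at an unadjusted p under 0.05 (2014 of all genes). DESeq2 without the block called 0 (4.5% of all genes) and limma-voom 0 (0%). With the replicate number as a block edgeR called 55 of 81 (67.9%), all with a higher value in male pairs, where 11.5% of all genes were called in that direction and 18% in the other. DESeq2 with the block called 61 of the 81 (23.6% of all genes in either direction). The median difference with the block was 0.61, and the median SE was 0.36 without the block and 0.15 with it. Each sex had only 2 pairs. A blocked fit without a replicate number therefore leaves 1 pair in a sex and does not measure the spread within it. Such fits cannot show whether a call is stable. The median difference in them was 0.67, 0.54, 0.73 and 0.51 without replicates 1 to 4. Adjusted p values given below without a replicate number carry the same limit.

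Genes of the small subunit, the large subunit and the stalk were all among those called. With the block 24 of 32 small subunit genes, 28 of 46 large subunit genes and 3 of 3 stalk genes were called higher in male pairs, with median differences of 0.64, 0.55 and 0.76. Rplp0, the stalk base, was measured at 1673, 2429, 2026 and 1787 CPM in GFP replicates 1 to 4 and at 1188, 1922, 2386 and 2219 CPM in Has2 replicates 1 to 4. Rplp1 was at 1525, 2419, 2044 and 1556 CPM and then 1152, 1662, 2229 and 2117 CPM. Rplp2, its partner in the stalk, was at 676, 1015, 892 and 687 CPM and then 523, 694, 1092 and 964 CPM. In each of the 3 genes both female pairs were lower and both male pairs higher with the Has2 virus, and the viruses overlapped. The differences between the sexes were 0.69 (SE 0.14; edgeR adjusted p = 0.00368), 0.76 (SE 0.15; edgeR adjusted p = 0.00383; 0.0516 without replicate 4) and 0.85 (SE 0.14; edgeR adjusted p = 0.00118).

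At the same minimum level, the widest differences between the sexes were those of Rps10, Rpl36, Rps14 and Rpl37a. Rps10, a protein of the small subunit beak at which stalled ribosomes are marked by ubiquitin, was at 80.9, 149, 128 and 91.4 CPM with the GFP virus and at 44.3, 82.1, 144 and 113 CPM with the Has2 virus. Its pair differences were -0.87, -0.86, 0.17 and 0.31, and the difference between the sexes was 1.10 (SE 0.12; edgeR adjusted p = 9.19e-05 with the block). Rpl36, a small protein on the surface of the large subunit, was at 245, 398, 319 and 234 CPM and then 148, 266, 385 and 360 CPM (1.10, SE 0.15; edgeR adjusted p = 0.000321). Rps14, a small subunit protein whose gene is deleted in the human 5q- syndrome, had pair differences of -1.02, -0.57, 0.23 and 0.31 (1.07, SE 0.16; edgeR adjusted p = 0.000657). Rpl37a, a zinc-binding large subunit protein, had pair differences of -0.84, -0.79, 0.02 and 0.34 (0.99, SE 0.14; edgeR adjusted p = 0.000466). In all 4 genes the mean of the female pairs lay further from 0 than the mean of the male pairs, for Rpl36 at -0.65 against 0.45. Rpl39 (0.97), Rpl27 (0.95) and Rpl18 (0.94) of the large subunit followed, with edgeR adjusted p values of 0.000714, 0.000337 and 0.000446.

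**Figure D3:**
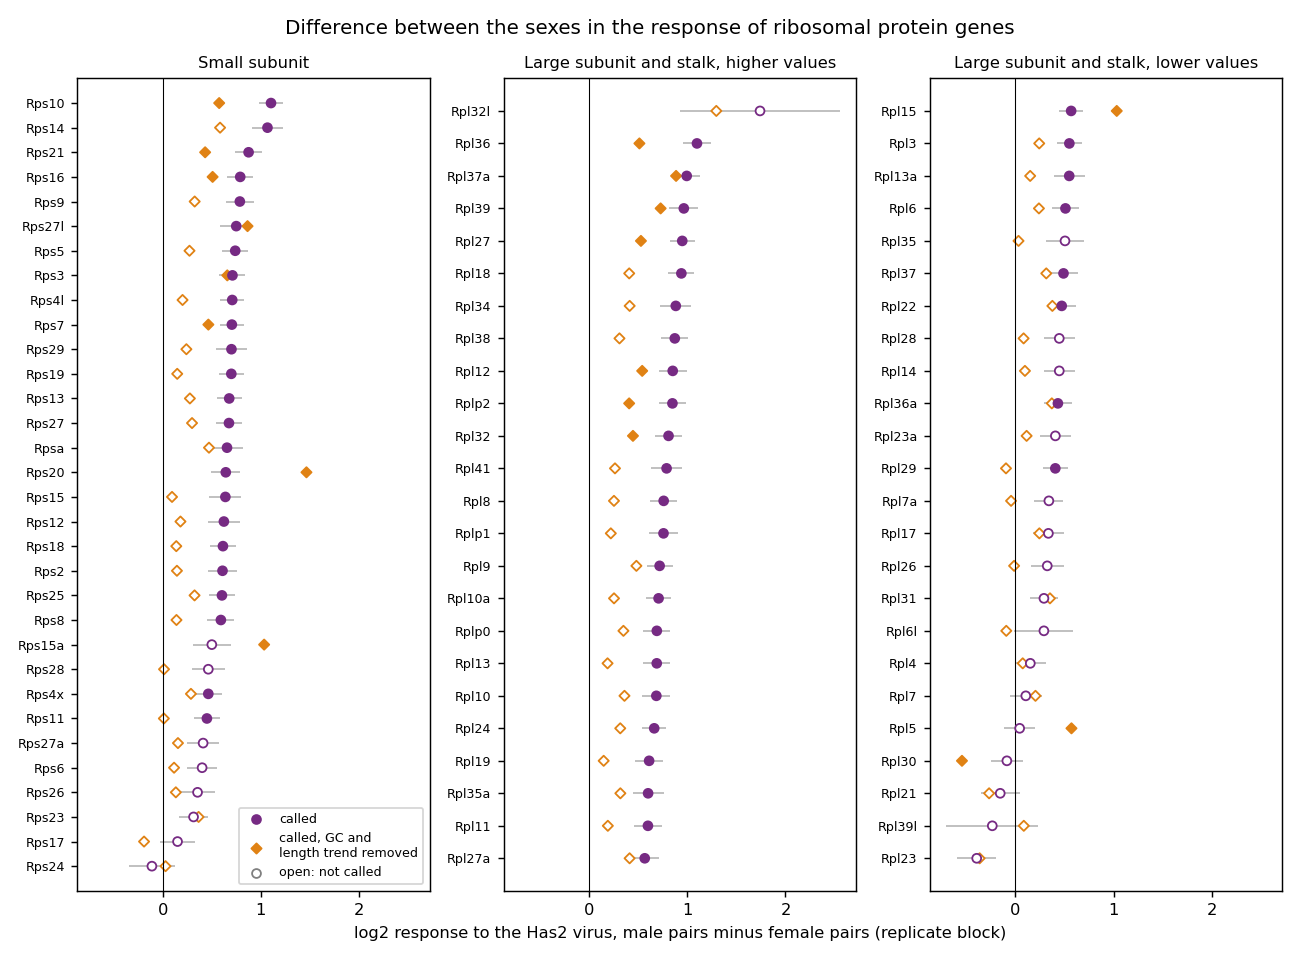
Difference between the sexes in the log2 response to the Has2 virus, male pairs minus female pairs in the fit with the replicate block (horizontal axis), for 80 of the 81 tested genes (vertical axis) in 3 panels. Purple circles with grey SE bars are the values as fitted, orange diamonds those with the GC and length trend removed, and filled symbols passed an edgeR adjusted p under 0.05. Filled circles number 55, all to the right of 0, and 69 of the 80 diamonds lie nearer to 0 than their circle.

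Ribosomal proteins known for a further role, for selective translation or for a disease were mixed. Rpsa, also known as the laminin receptor, was at 1396, 2269, 1900 and 1503 CPM with the GFP virus and at 1186, 1666, 2095 and 2113 CPM with the Has2 virus (difference between the sexes 0.66, SE 0.16; edgeR adjusted p = 0.0104 with the block; 0.123 without replicate 4). Rps3, which also takes part in DNA repair and NF-kappaB signalling, differed by 0.71 (edgeR adjusted p = 0.00255), and Rps19, mutated in Diamond-Blackfan anaemia, by 0.70 (edgeR adjusted p = 0.00227). Rpl38, known for selective translation of Hox messages, differed by 0.87 (edgeR adjusted p = 0.000951), with 161, 269, 241 and 166 CPM and then 103, 162, 246 and 211 CPM. These 4 genes were called in the same direction as most of the others.

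Rpl11, the partner of Rpl5 at Mdm2, differed by 0.60 (edgeR adjusted p = 0.0108; 0.125 without replicate 4), whereas Rpl5 itself stood at 0.04 (SE 0.15; edgeR adjusted p = 0.869). Rpl13a, a translational silencer when released from the ribosome, differed by 0.55 (edgeR adjusted p = 0.0243; 0.0783 without replicate 2 and 0.143 without replicate 4) and Rpl22, an RNA-binding protein needed in T cell development, by 0.47 (edgeR adjusted p = 0.0336; 0.065 without replicate 2 and 0.282 without replicate 4). Rps6, the substrate of the S6 kinases, was at 0.40 (SE 0.15; edgeR adjusted p = 0.0717) and Rps27a, made as a fusion with ubiquitin, at 0.41 (SE 0.16; edgeR adjusted p = 0.0772), and neither was called.

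Paralogues of ribosomal proteins were compared with the main copy. Rps27l, a p53 target that can replace Rps27, was at 121, 166, 171 and 142 CPM with the GFP virus and 66.3, 134, 185 and 165 CPM with the Has2 virus, and Rps27 at 325, 514, 450 and 354 CPM and then 243, 375, 483 and 459 CPM. The differences between the sexes were 0.75 and 0.68, each called with the block (edgeR adjusted p = 0.00744 and 0.00394; for Rps27 0.058 without replicate 4). Rps4x and the non-coding Rps4l differed by 0.47 and 0.71 (edgeR adjusted p = 0.0277 and 0.00156; for Rps4x 0.0586 without replicate 3 and 0.254 without replicate 4). Rpl39 differed by 0.97 (edgeR adjusted p = 0.000714), while Rpl39l, at a mean of 0.90 CPM, was at -0.24 (SE 0.47). Rpl3 and Rpl10, whose paralogues did not pass the filter, differed by 0.55 and 0.69 (edgeR adjusted p = 0.0098 and 0.00503; 0.115 and 0.0501 without replicate 4). Among the genes of highest level per kb, Rps12 and Rpl41 differed by 0.62 and 0.79 (edgeR adjusted p = 0.0142 and 0.00383; for Rps12 0.174 without replicate 4).

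A few genes did not follow the pattern. Rpl23, which also binds Mdm2, was at 688, 907, 800 and 672 CPM with the GFP virus and at 769, 722, 484 and 571 CPM with the Has2 virus. Its pair differences were 0.16, -0.33, -0.72 and -0.23, so that it was lower in both male pairs (difference between the sexes -0.39, SE 0.20; edgeR adjusted p = 0.159). Rpl21 was at 503, 701, 641 and 538 CPM and then 529, 530, 425 and 521 CPM, with Has2 replicate 3 below the other libraries (-0.16, SE 0.20). Rps24, another Diamond-Blackfan gene, and Rpl30, which in yeast binds its own message, were at -0.11 (SE 0.23) and -0.09 (SE 0.17). Rpl23, Rpl21, Rps24 and Rpl30 shared the replicate 3 pair as the pair of their most negative difference, at -0.72, -0.59, -0.69 and -0.46.

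GC content and length of the transcripts moved with these differences. The ribosomal protein transcripts are short, with a median of 805 bases against 2802 for all genes, and have a median GC content of 51.8% against 50.3%. Over the 81 genes Spearman's rho between the pair difference and GC content was -0.07, -0.34, 0.56 and 0.51 in replicates 1 to 4, and over all genes -0.23, -0.19, 0.67 and 0.66. With length it was 0.32, 0.35, -0.05 and -0.20 over the 81 genes, and 0.25, 0.52, -0.08 and -0.36 over all genes. These are descriptions across genes that share 2 libraries in each pair.

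**Figure D4:**
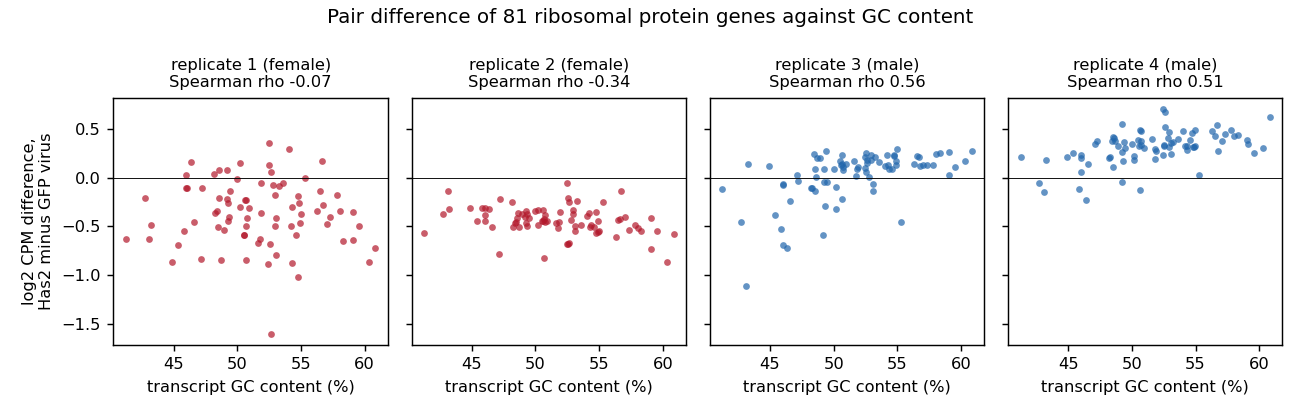
Log2 CPM difference, Has2 virus minus GFP virus (vertical axis), against transcript GC content in percent (horizontal axis) for the 81 tested ribosomal protein genes, in a panel for each pair. Each point is a gene. In the male pairs of replicates 3 and 4 the genes of low GC content lie lowest (Spearman's rho 0.56 and 0.51), and in the female pairs rho is -0.07 and -0.34.

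A trend in GC content and length was fitted in each library on the genes that are not ribosomal and removed from all genes. The medians of the 81 genes were then -0.20, -0.16, 0.06 and 0.15 in the pairs of replicates 1 to 4, with the same signs as before and smaller sizes. In the fit with the block 17 genes were called higher in male pairs (3.93% of all genes) and 1, Rpl30, lower at -0.55 (edgeR adjusted p = 0.0287; 4% of all genes), and the median difference was 0.26. Of these 17 genes 15 (88.2%) were among the 55 called before, which is 27.3% of the 55, and the other 2 were Rpl5 (0.57; edgeR adjusted p = 0.0211) and Rps15a (1.03; edgeR adjusted p = 0.016). The value of Rps15a depends on its long annotated transcript. Rpl5 has an annotated transcript of 2045 bases with a GC content of 42.7%, and its difference was 0.04 before the trend was removed. Rps3 (1908 bases) and Rpsa (1938 bases) are also longer than the median of these genes. Rps20 (3706 bases) and Rpl15 (1922 bases) have such longer annotated transcripts as well. Their differences rose from 0.64 and 0.57 to 1.465 and 1.03 with the trend removed (edgeR adjusted p = 0.00121 and 0.0018). Both lie outside the rule for named genes and were picked after their values were seen.

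Of the 26 named genes called with the block, 8 were still called with the trend removed and 18 were not. Called were Rps10 (0.58; edgeR adjusted p = 0.00934), Rpl37a (0.89; 0.00316), Rps3 (0.66; 0.00765), Rpl39 (0.73; 0.024), Rps27l (0.87; 0.0336), Rpl36 (0.51; 0.0339), Rpl27 (0.53; 0.0351) and Rplp2 (0.41; 0.043). Not called were Rpl18 (0.41; edgeR adjusted p = 0.0561), Rpsa (0.47; 0.0646), Rps14 (0.59; 0.0757), Rpl38 (0.31; 0.0884), Rpl22 (0.38; 0.101), Rplp0 (0.35; 0.111), Rpl24 (0.32; 0.114), Rps27 (0.30; 0.118) and Rpl10 (0.36; 0.149). Nor were Rps4x (0.29; edgeR adjusted p = 0.159), Rpl41 (0.26; 0.176), Rpl3 (0.24; 0.193), Rps4l (0.20; 0.242), Rplp1 (0.22; 0.252), Rpl11 (0.19; 0.306), Rps12 (0.18; 0.387), Rps19 (0.15; 0.419) and Rpl13a (0.15; 0.515). The share of mitochondrially encoded counts moved against the ribosomal protein share: with the Has2 virus it was 1.89, 1.4, 0.61 and 0.65 times that with the GFP virus in the pairs of replicates 1 to 4, where the ribosomal protein share was 0.81, 0.76, 1.01 and 1.22 times. With the mitochondrially encoded and Has2 counts left out of the totals, the ribosomal protein share was 3.98%, 5.54%, 5.22% and 4.47% with the GFP virus and 3.28%, 4.25%, 5.26% and 5.48% with the Has2 virus, so the direction in each pair was as before. Summed macrophage markers went from 2516 to 2367 CPM, from 1029 to 961, from 1832 to 2067 and from 2314 to 2688 CPM in the 4 pairs, in the same directions as the ribosomal protein genes. The median pair differences of these 13 markers were -0.15, -0.20, 0.15 and 0.19 in replicates 1 to 4. With the GC and length trend removed they were -0.004, 0.09, 0.11 and 0.02, where those of the ribosomal protein genes were -0.20, -0.16, 0.06 and 0.15. The part of macrophages and of RNA quality in the result was not tested.

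Sequences at the transcription start were read for the coding members because these genes moved together and are known for the pyrimidine run. RefSeq promoters (GRCm38.p6) were matched for 60 of them, 72 promoters in all. Each line shows 20 bases before the annotated start and the first 15 bases from it, with a run of at least 5 C or T bases that touches the start in capitals. The first 6 genes have such a run; the last 2, which lie at opposite ends of the difference between the sexes, do not.
Rps10 (chr17:27635230-27635264, minus strand): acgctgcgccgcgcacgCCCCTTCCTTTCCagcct
Rplp2 (chr7:141447631-141447665, plus strand): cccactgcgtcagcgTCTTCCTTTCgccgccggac
Rpl38 (chr11:114668560-114668594, plus strand): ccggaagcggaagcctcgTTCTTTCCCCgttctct
Rps6 (chr4:86857353-86857387, minus strand): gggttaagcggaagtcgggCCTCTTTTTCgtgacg
Rpl28 (chr7:4792945-4792979, plus strand): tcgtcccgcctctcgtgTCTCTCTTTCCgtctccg
Rpl35 (chr2:39005117-39005151, minus strand): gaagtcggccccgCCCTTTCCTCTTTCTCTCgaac
Rpl37a (chr1:72711240-72711274, plus strand): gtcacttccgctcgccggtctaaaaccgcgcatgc
Rpl23 (chr11:97782425-97782459, minus strand): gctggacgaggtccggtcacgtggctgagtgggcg

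The run was found in 31.9% of the 72 promoters and in 16.1% of all 32851 RefSeq promoters of the same length. The 22 genes with it had a median difference between the sexes of 0.58 (-0.24 to 1.10) and the 36 tested genes without it one of 0.65 (-0.39 to 0.99), and the ranges overlapped. In Rps10, Rplp2 and Rpl38 above the run stands beside differences of 1.10, 0.85 and 0.87, and in Rps6, Rpl28 and Rpl35 beside 0.40, 0.45 and 0.50, which were not called. Annotated starts can lie some bases from the start used in these cells, so a missing run says only that these letters are not at the annotated position.

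Other motifs were searched on both strands over the 300 bases of each promoter. CCGGAAG, the core bound by ETS factors such as GABP, was in 36.1% of the 72 promoters (8.86% of all), and GCCATNTT, the core of the YY1 motif, in 20.8% (6.05%). GGGCGG, the GC box, was in 58.3% (35.7%), TATAAA in 8.33% (13.6%) and CCAAT in 30.6% (37.4%). A match describes the letters and not binding.

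Related genes outside the symbol rule showed how far the pattern reached. Of 8 relatives, 4 were called higher in male pairs with the block and 0 lower (11.5% and 18% of all genes). Rack1, a scaffold on the small subunit, differed by 0.83 (edgeR adjusted p = 0.0015), and Fau, which makes a ribosomal protein fused to a ubiquitin-like protein, by 0.61 (edgeR adjusted p = 0.0205). Rpl7l1 differed by 0.41 (edgeR adjusted p = 0.0309). These 3 were named after their values were seen. Rps3a1, the main copy of a small subunit protein, did not share the pattern: it was lower in all 4 pairs, at -0.40, -0.46, -0.63 and -0.16 (log2 fold change -0.42, SE 0.15). The paralogue Rpl22l1 was also lower in 4 of 4 pairs (-0.77, SE 0.25). Neither was called for the virus; after removal of the GC and length trend Rpl22l1 stood at -0.24 and Rps3a1 at -0.29. In the blocked fit with the trend removed 1 of the 8 relatives was called higher in male pairs and 0 lower (3.93% and 4% of all genes). Fau was then at 0.07 and Rpl7l1 at 0.37 (edgeR adjusted p = 0.812 and 0.0795).

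Genes that make or serve the ribosome were called in both directions, and their counts are read against the 11.5% of all genes called higher and 18% called lower in male pairs. For Has2 against GFP virus 0 genes of any of these lists were called by edgeR, with or without the block. In the difference between the sexes with the block, other TOP messages had 9 of 24 genes higher and 6 lower in male pairs, with pair medians of -0.12, -0.30, 0.04 and 0.14. That list also holds Rack1, Fau and several translation factors. Initiation factors had 11 of 37 higher and 12 lower, elongation and termination factors 3 of 12 higher and 3 lower, assembly factors 11 of 48 higher and 9 lower, and subunits of RNA polymerases I and III 8 of 22 higher and 4 lower. Of 17 regulators of ribosome supply, among them Mtor, Larp1 and Myc, 2 were higher and 3 lower. The regulators in both directions, and the assembly factors and polymerase subunits with lower values, are near those shares of all genes, which is no result about these lists. Among the called ones with lower values in male pairs were Eif3e (-0.74), a subunit of initiation factor 3, Etf1 (-0.86), the release factor, Nmd3 (-0.90), an export adaptor of the large subunit, and Taf1d (-1.11), a subunit of the polymerase I selectivity factor, with edgeR adjusted p values of 0.00681, 0.00102, 0.00142 and 0.00208. With the trend removed none of the 4 was called: Eif3e was at -0.04, Etf1 at -0.34, Nmd3 with the other sign at 0.42 and Taf1d at -0.53 (edgeR adjusted p = 0.87, 0.128, 0.128 and 0.0837). Of the other TOP messages 4 of 24 were then called higher and 1 lower (3.93% and 4% of all genes). Initiation factors had 4 of 37 higher and 2 lower, elongation and termination factors 2 of 12 and 0, and assembly factors 3 of 48 and 2. Polymerase subunits had 1 of 22 higher and 0 lower, and the regulators 1 of 17 and 0. The GTPase Rheb, which activates mTOR, was lower in all 4 pairs at -0.19, -0.29, -0.76 and -0.55. Tsc2, its inhibitor, was higher in all 4 at 0.20, 0.30, 0.26 and 0.14, and neither was called for the virus. Of the 17 regulators 1 was lower and 5 were higher in all 4 pairs, against 1206 and 1387 of the 15150 genes tested. With the trend removed the log2 fold changes of Rheb and Tsc2 were -0.32 and 0.13. Snhg1 and Gas5, non-coding TOP transcripts that host small nucleolar RNAs, had pair differences of -0.38, -0.29, -1.07 and -0.80 and of 0.00, -0.39, -1.15 and -0.66. Their differences between the sexes were -0.60 and -0.71 with the block. With the trend also removed they were 0.20 and -0.10 (edgeR adjusted p = 0.335 and 0.764).

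Nuclear genes of the mitochondrion had pair medians of the same signs as the ribosomal protein genes. Oxidative phosphorylation genes had pair medians of -0.31, -0.41, 0.11 and 0.33, with 31 of 46 called higher in male pairs and 1 lower, and mitochondrial ribosomal proteins medians of -0.11, -0.34, 0.12 and 0.27, with 40 of 78 higher and 3 lower. Of the 13 protein-coding genes encoded in the mitochondrion only 7 passed the expression filter. The transcripts of these 7 had the opposite signs before the trend was removed, with medians of 1.18, 0.42, -0.73 and -0.44. In male pairs 6 of the 7 were called lower. Among them mt-Nd5 had pair differences of 1.38, 0.80, -0.39 and -0.21, and the difference between the sexes with the block and the trend removed was -0.35 (edgeR adjusted p = 0.174). With the trend removed 8 of the 46 oxidative phosphorylation genes and 13 of the 78 mitochondrial ribosomal protein genes were called higher (3.93% of all genes). The mitochondrially encoded genes then had pair medians of 1.11, 0.61, 0.41 and 0.55, so that the male pairs turned positive, and 2 of 7 were called lower (4% of all genes). For Has2 against GFP virus, with the block and the trend removed, mt-Nd2 was called higher at 0.89 (edgeR adjusted p = 0.0404), where 0.0396% of all genes were called. In that fit mt-Nd5 and mt-Nd4 were at 0.91 and 0.82 and were not called (edgeR adjusted p = 0.0543 and 0.123). Whether the lists differ from the ribosomal protein genes was not tested.

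**Figure D5:**
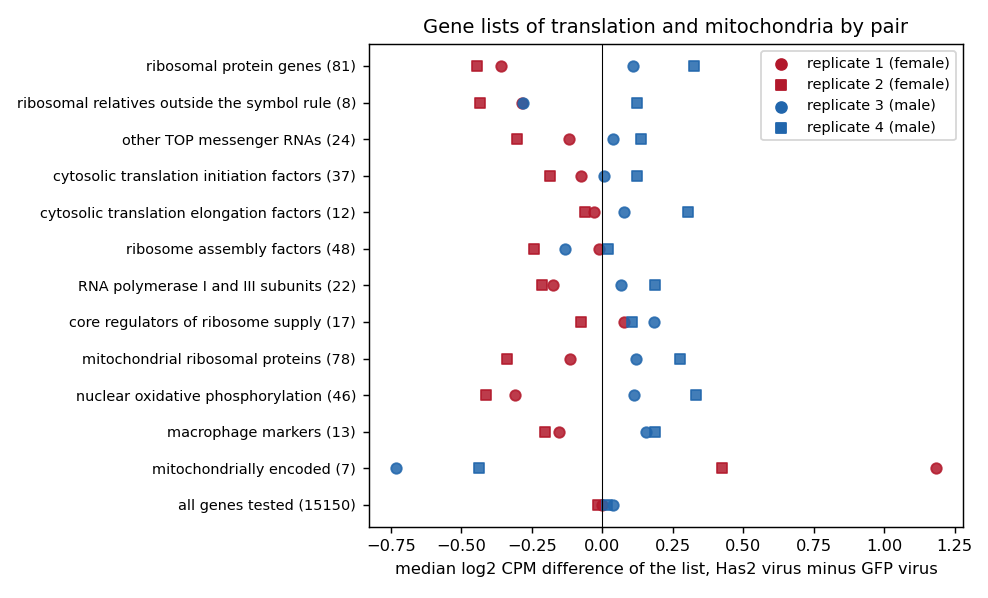
Median log2 CPM difference, Has2 virus minus GFP virus (horizontal axis), of each gene list (vertical axis, number of tested genes in brackets) in the 4 pairs, red for female and blue for male. Ribosomal protein genes (-0.36, -0.45, 0.11 and 0.33) and oxidative phosphorylation genes (-0.31, -0.41, 0.11 and 0.33) lie at similar places, mitochondrially encoded genes lie on the opposite sides (in the male pairs only as long as the GC and length trend is not removed: 0.41 and 0.55 with it removed), and the medians of all genes lie within 0.04 of 0.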

How the data were processed

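Messenger RNA libraries of 8 cultures came from a stranded kit, per the labels' protocols. Unnormalised counts for each Ensembl gene were deposited by the authors as 1 table. HTSeq 0.10.0 made the counts after a FastQC 0.10.1 check, on build mm39 (GRCm39), per the submitters' processing notes. Aligner, annotation, strand setting and treatment of multiply mapped reads: not given in the sources used here. Near-identical copies may have had reads dropped or split. Symbols, transcript GC content and length came from GENCODE M21, which is on an older build than the counts, and 52081 of 55414 identifiers matched. The only coordinates given are those of the promoter windows, on GRCm38.p6.

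Tests were made first with edgeR 4.0.16 under R 4.3.3 (quasi-likelihood F-test, TMM scaling, default expression filter, all 8 libraries, group as the only term, Benjamini-Hochberg over all genes tested, called at an adjusted p under 0.05). The difference between the sexes was an interaction term in a fit with 4 sex and virus groups. Same-numbered libraries share a preparation identifier, and the correlation of their deviations from group means was 0.58, 0.62, 0.53 and 0.44 in replicates 1 to 4, so the numbers pair the libraries and a fit with the number as a block is given beside the main one. Pair differences use log2 CPM with a prior count of 2. The trend of GC content and log2 length (splines of 5 degrees of freedom each) was fitted without the ribosomal protein genes. Correlations across genes carry no p. Intervals of shares are exact binomial 95% intervals and, like the 3 counts that a count of 0 allows, cover counting error only.

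Alternatives were the block, trend removal, RLE scaling, library totals, TMM without Has2 and ribosomal protein counts, other expression filters, sex as a covariate, DESeq2 1.42.0, limma-voom (limma 3.58.1), other prior counts, and leaving out each library or replicate number. Leaving out a replicate number in the blocked fit was chosen after seeing the data. Scripts were tested on simulated data. Every 2 libraries of a group differed by more than counting noise, with chi-square values 30.1 to 236 times their degrees of freedom.

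Named genes are members with a known separate role, paralogue pairs, the 4 highest and 4 lowest members (mean of at least 5 CPM) for each comparison, up to 5 members per direction with the smallest p called with the block, the 3 highest and lowest per kb, and up to 3 genes of smallest p per other list. Some genes that the rule names are not reported here. The members and lists were chosen with earlier results of these data known.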

Additional observations from a re-analysis of the deposited data

Results flagged for a closer look

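Of 82 sets of 4 libraries tested, 1 held a library far from the other 3. This was Rpl21, which stood at 425 CPM in Has2 replicate 3, against 521 to 530 CPM in the other Has2 libraries. Chance alone marks about 5% of such sets.

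The response differed between the sexes, by the interaction term with the replicate block at an edgeR adjusted p under 0.05, in 26 of the named genes, all with a higher value in male pairs, where 11.5% of all genes were called in that direction. With the GC and length trend removed 8 of the 26 were still called and 18 were not, with values of 0.15 to 0.59 in those 18 (Rps19 at 0.15 and Rplp1 at 0.22). In the small subunit the differences were 1.10 for Rps10, 1.07 for Rps14, 0.75 for Rps27l, 0.711 for Rps3, 0.709 for Rps4l, 0.70 for Rps19, 0.676 for Rps27, 0.656 for Rpsa, 0.624 for Rps12 and 0.466 for Rps4x. In the stalk they were 0.849 for Rplp2, 0.758 for Rplp1 and 0.69 for Rplp0. In the large subunit they were 1.10 for Rpl36, 0.995 for Rpl37a, 0.965 for Rpl39, 0.949 for Rpl27, 0.94 for Rpl18, 0.873 for Rpl38, 0.79 for Rpl41, 0.685 for Rpl10, 0.664 for Rpl24, 0.60 for Rpl11, 0.548 for Rpl3, 0.547 for Rpl13a and 0.471 for Rpl22. Without the block none of these genes was called by edgeR (1 of the 81 tested ribosomal protein genes had an unadjusted p under 0.05), DESeq2 or limma-voom. Leaving out a replicate number in the blocked fit leaves 1 pair in a sex, so a call kept there is no sign that it is stable. Calls were lost there for Rpl10, Rpl11, Rpl3, Rplp1, Rps12, Rps27 and Rpsa without replicate 4. They were also lost for Rpl13a and Rpl22 without replicate 2 or 4, and for Rps4x without replicate 3 or 4. The 2 preparation series coincide with the sexes and cannot be told apart from them.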

How the results depend on the processing

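For Has2 against GFP virus 0 ribosomal protein genes were called in every alternative run. Genes called over the whole table numbered 1 in the main fit, 1 with the replicate block, 6 with the block and the trend removed, 7 by DESeq2 and 61 by DESeq2 with the block, and 0 to 1 when libraries or replicate numbers were left out (0 without replicate 1 in the blocked fit). The median of the ribosomal protein genes, -0.07, ran from -0.21 (without replicate 4 in the blocked fit) to 0.12 (without Has2 replicate 1). It changed sign without GFP replicate 2 (0.05), without Has2 replicate 1 (0.12), without replicate 1 (0.03) and without replicate 2 (0.06), and in the blocked fit without replicate 1 (0.038) and replicate 2 (0.016); without replicate 4 it was -0.19. The cause was not tested. For the 40 named genes that were tested, 155 of 1119 values had the other sign (25 genes).

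For the difference between the sexes genes called numbered 0 in the main fit, 4470 with the replicate block, 1202 with the block and the trend removed, 681 by DESeq2 and 3577 by DESeq2 with the block. When libraries or replicate numbers were left out they ranged from 0 to 4972, with 4972, 4840, 2658 and 2353 in the blocked fit without replicates 1 to 4. Ribosomal protein genes called numbered 0, 55, 18, 0 and 61 in the same order, and ranged from 0 to 65 in the leave-out fits: 65, 54, 55 and 29 in the blocked fit without replicates 1 to 4, and 0 in all those without the block. The median difference of these genes, 0.62, ran from 0.28 (without GFP replicate 2) to 0.85 (without Has2 replicate 2) when libraries or replicate numbers were left out, and was 0.26 with the trend removed in both fits. The cause was not tested. The block lowers the SE of these genes from 0.36 to 0.15. For the 40 named genes 47 of 1079 values had the other sign (8 genes), and no call changed direction. The depth of 46981231 counts or more limits most the rarest members, Rpl10l, Rpl3l and Rpl32l. Rpl39l and Rpl6l, at means of 0.90 and 2.33 CPM, also had wider SEs, 0.47 and 0.30 with the block against a median of 0.15.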
